A study of Rattus norvegicus with 16 samples.

Results

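The acute phase and macroglobulin genes described here were 10 of the 26269 gene names on the array: the macroglobulins A1i3 and A2m, the plasma proteins Hp, Orm1, Crp, Cp, Hpx and Lcn2, and the regulators Stat3 and Socs3. Every probe carrying one of these names was taken, which gave 14 of the 30367 probes, each printed as 1 spot. The members were selected on earlier values of the same 4 groups, with A1i3 and A2m leading the choice, so their levels and differences are given as a description and carry no p-value. Of the 14 probes, 6 were well above background on all 16 arrays, 6 on some arrays and 2 on none, and none was left out for a low signal.

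The samples were rat hepatoma H35 cells, a liver tumour line, and 1-colour arrays measured their total RNA. CN-10 was a stable clone carrying a plasmid with a negative control shRNA. Clone 4-18 was stable for a plasmid with the Pdrg1 silencing sequence shRNA4, and clone 3-44 for one with shRNA3. The fourth group, shRNA3T, was a pool of cells enriched with G418 after transient transfection with shRNA3. All 4 groups received a plasmid by Lipofectamine and G418 selection, and the clones were selected further. Each clone is a single isolate, so a feature of that isolate and an effect of its shRNA cannot be told apart. Each group had 4 biological replicates, and every comparison shares the same 4 CN-10 arrays.

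The acute phase response is the change in plasma protein synthesis by which the liver answers injury or infection. Interleukin-6 acts through the Il6r and Il6st receptor chains on Jak kinases and Stat3, Socs3 feeds back on this signal, and interleukin-1 acts largely through NF-kB. In the rat, A2m is a classical positive acute phase protein, whereas A1i3 is a negative one and falls during inflammation. Both are large plasma proteinase inhibitors of the alpha-macroglobulin family.

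Signals are log2 intensities after background correction and quantile normalization, with 1 unit equal to a doubling. A call required a change of at least 2-fold and an adjusted p under 0.05 in limma over all probes. Pdrg1 itself (probe A_43_P11144) was at 13.64 ± 0.22 (SD, n = 4) in CN-10. It was lower on every array of the silenced groups, by a log2 difference of -0.77 in 4-18, -0.99 in 3-44 and -0.85 in shRNA3T (SE 0.34), and limma gave adjusted p of 0.129, 0.105 and 0.143, so it was called in none. The 4-18 arrays ran from 11.57 to 13.34 (SD 0.87), and without replicate 1 the 4-18 difference was -0.33. A slide held the arrays of a single group, and that of 4-18 was scanned on a different day from the rest, so effects of slide and of group cannot be told apart. The share of spots well above background was 53.1% to 64.1% on the 4-18 arrays and 64.7% to 74.3% on the others, and the lowest was 4-18 replicate 2. Leaving that array out kept the number of members called in 4-18 at 3, but it turned the sign of Stat3 and ended the overlap of a Cp probe with CN-10, as given with those genes. Of 8 hepatocyte markers 6 were well above background on all 16 arrays, Alb, Afp and Foxa2 among them, and none was below it on all. Markers of other cell types were mixed. Pecam1, Ptprc and Cd163 were well above background on no array, Cdh5, Col1a1 and Cd14 on all 16, and the rest on some.

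The sequences matter most for A1i3, because its probes lie in a cluster of near copies. On rat chromosome 4 (build rn4, plus strand) the array holds A2m, A1i3, Mug1 and Mug2 in that order. The brighter A2m probe starts 86.9 kb before the brighter A1i3 probe, and the Mug1 and Mug2 probes start 98.3 and 192.1 kb after it. The brighter A1i3 probe, A_64_P378394 at chr4:158239316-158239375, is assigned in the array's own annotation to the transcripts of both A1i3 and Mug1, and the brighter A2m probe, A_64_P038873 at chr4:158152445-158152504, to A2m transcripts alone. In RefSeq on GRCr8, the A1i3 transcript now bears the symbol Mug1l1. The other A1i3 probe, A_64_P038877 at chr4:158243964-158244023, differs from the Mug1 probe A_64_P108019 at 5 of 60 bases. The full brighter probes are shown to give the A1i3 and A2m targets, and the first 30 bases of the other pair to show how alike A1i3 and Mug1 are, with capitals at the 3 differing bases of that stretch.
A1i3 A_64_P378394: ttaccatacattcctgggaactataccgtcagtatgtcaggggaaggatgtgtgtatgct
A2m A_64_P038873: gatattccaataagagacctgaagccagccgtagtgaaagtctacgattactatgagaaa
A1i3 A_64_P038877, bases 1 to 30: gaacCttcaagAAggtgatttgtgtttgtc
Mug1 A_64_P108019, bases 1 to 30: gaacTttcaagGTggtgatttgtgtttgtc
Signal at the A1i3 probes may therefore include Mug1 transcript. For the brighter probe this follows from its annotation, while the other probe is not annotated to Mug1 and is only similar in sequence. Values named A1i3 here are those of these probes.

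A1i3 was lower than CN-10 in clone 4-18 and higher in both groups that received shRNA3. At the brighter probe the 4 CN-10 arrays read 8.64, 8.54, 8.90 and 9.14, and the 4-18 arrays read 7.66, 6.89, 7.82 and 7.79. The 3-44 arrays read 9.40, 10.05, 9.91 and 10.11, and the shRNA3T arrays read 9.90, 9.89, 9.94 and 10.11. All 4-18 arrays lay below all CN-10 arrays, and all arrays of the other 2 silenced groups lay above them, while 3-44 and shRNA3T overlapped each other. The means of CN-10, 4-18, 3-44 and shRNA3T were 8.81 ± 0.27, 7.54 ± 0.44, 9.87 ± 0.32 and 9.96 ± 0.10 (SD, n = 4 each). The log2 differences from CN-10 were -1.27, 1.06 and 1.15 (SE 0.20), and A1i3 was the only member past the call limits in all 3 comparisons. In bulk RNA, fewer cells making a transcript and less of it per cell cannot be told apart, here and for every gene that follows. The 3-44 call sat at the 2-fold limit and was lost without 3-44 replicate 2 (log2 difference 1.00), without 3-44 replicate 4 (0.98) and without CN-10 replicate 2 (0.97). With 75th percentile scaling A1i3 kept its directions but no call (-0.71, 1.09 and 1.21), and cyclic loess lost the 4-18 call (-0.94).

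The other A1i3 probe showed the same order of groups. It read 8.29, 8.34, 8.41 and 8.28 in CN-10 and 6.77, 7.13, 6.20 and 6.55 in 4-18, and no 4-18 array was well above background. Against the dimmest signal measurable on those arrays, 4-18 was at least 3.06-fold lower under quantile normalization. This size depends on the scaling, since the measured log2 difference was -0.73 with 75th percentile scaling and -3.59 on the processed signal. The 3-44 arrays read 9.12, 9.14, 8.76 and 9.16 and the shRNA3T arrays 9.31, 9.10, 9.15 and 9.39, all above CN-10. The log2 differences of 0.72 and 0.91 (SE 0.15) stayed under 2-fold, so this probe was called in 4-18 alone. Without 4-18 replicate 2 the 4-18 difference was -1.05 at the brighter probe.

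A2m stayed close to the detection limit in every group and was highest in shRNA3T. Its brighter probe read 6.63, 6.49, 6.65 and 6.63 in CN-10, where 2 of 4 arrays were well above background, and 6.84, 6.52, 6.62 and 6.55 in 4-18, where none was. The 3-44 arrays read 6.94, 6.86, 6.85 and 6.89, and the shRNA3T arrays 7.43, 7.33, 7.35 and 7.76. The 4-18 arrays overlapped CN-10, the 3-44 arrays all lay above it and the shRNA3T arrays all lay above those. The log2 differences were 0.03, 0.28 and 0.87 (SE 0.10), and none was called. The shRNA3T difference passed the call limits with a normexp offset of 16 (1.22) and on the processed signal (2.19), and the 3-44 difference was 1.01 on the processed signal. The direction in 4-18 was not fixed, since it was -0.21 on the scanner's processed signal and 1.11 with 75th percentile scaling, which moved the median of all genes there to 0.84. The other A2m probe, A_64_P038872, was well above background on no CN-10 and no 4-18 array. It read 6.51, 6.67, 6.66 and 6.56 in 3-44, with 3 of 4 well above background, and 6.93, 6.98, 6.99 and 7.29 in shRNA3T. The measured log2 differences there were 0.15 and 0.60 (SE 0.08). With no CN-10 array well above background their sizes are uncertain. Across other settings they ran from 0.12 to 1.04 in 3-44 and from 0.52 to 2.42 in shRNA3T.

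**Figure D1:**
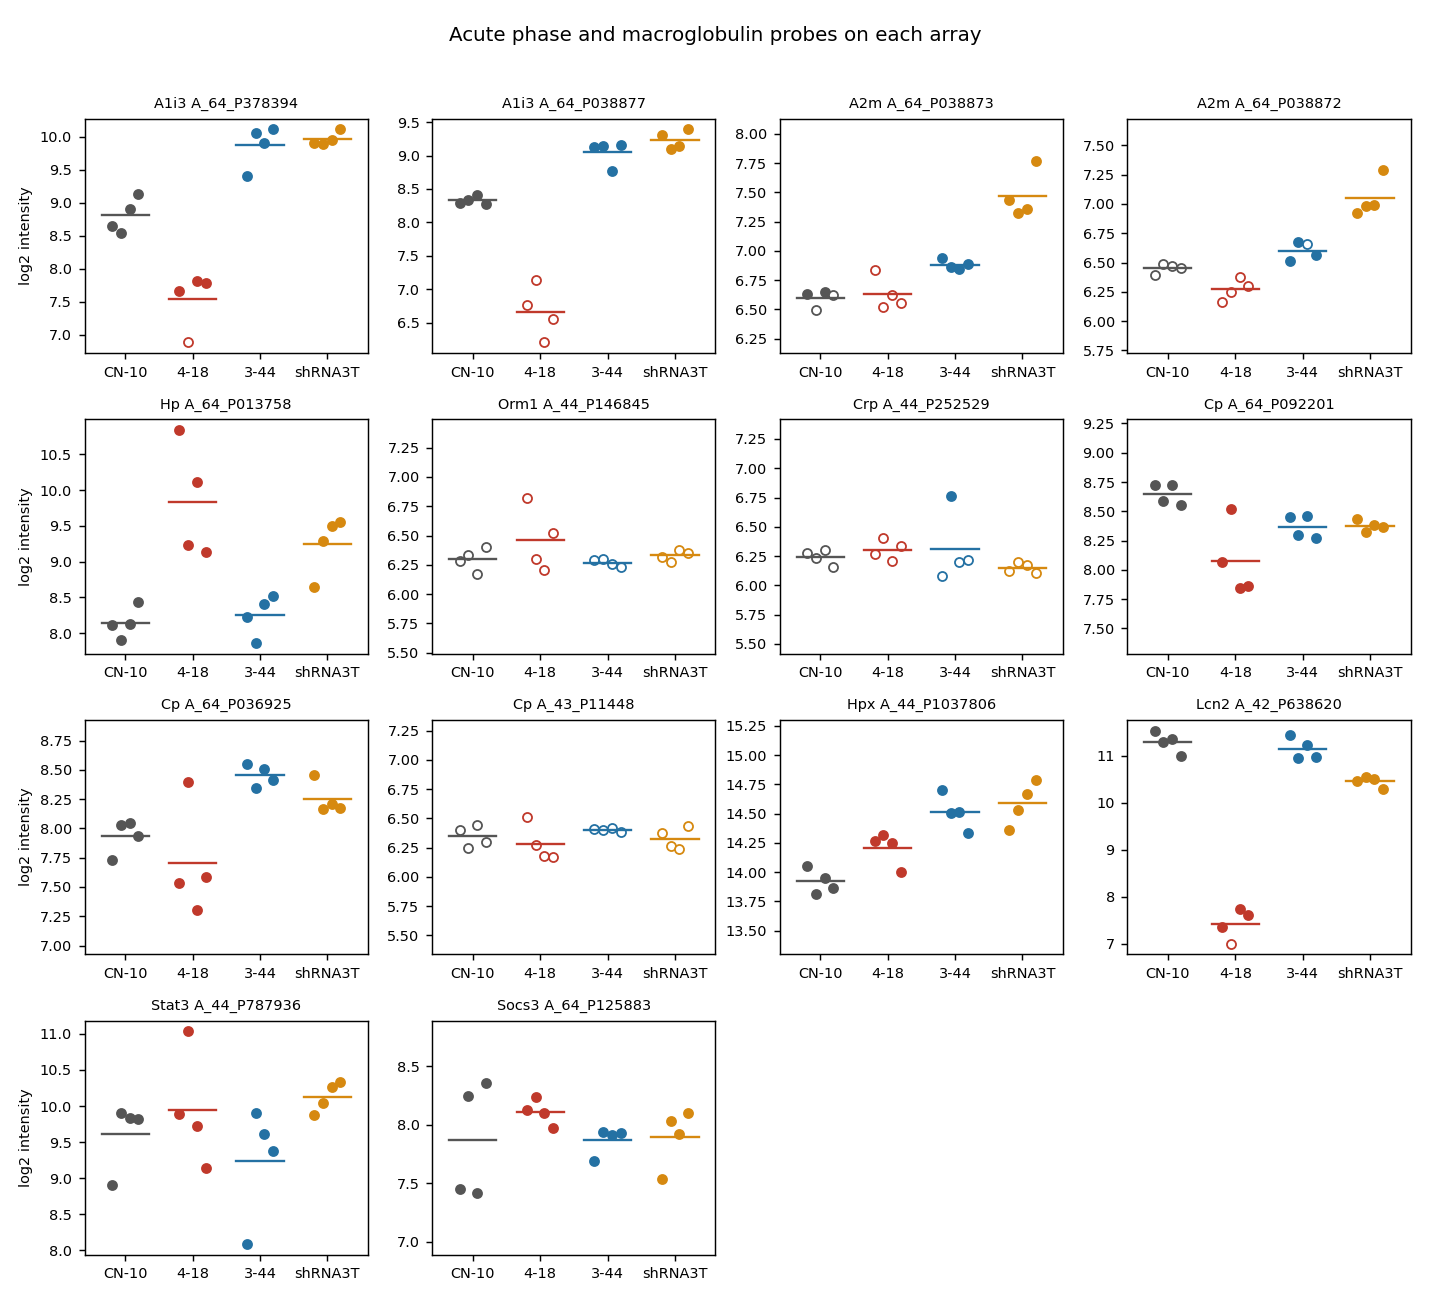
Normalized log2 intensity (y axis, scaled separately for each probe) of the 14 member probes on the 4 arrays of each group (x axis), with lines at group means and open circles for spots not well above background. A1i3 was low in 4-18 and high in the shRNA3 groups, and Lcn2 spanned 10.99 to 11.53 in CN-10 and 7.00 to 7.73 in 4-18.

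Among the plasma proteins, Lcn2 had the widest difference of any member. Lcn2 is a small secreted protein that binds bacterial iron carriers, and its probe lies at chr3:11511592-11511651 on the minus strand. It read 11.53, 11.29, 11.36 and 10.99 in CN-10 and 7.35, 7.00, 7.73 and 7.61 in 4-18, where 3 of 4 arrays were well above background. This is a log2 difference of -3.87 (SE 0.16), or 14.6-fold lower, and it passed the call limits. The 3-44 arrays read 11.45, 10.96, 11.22 and 10.96 and overlapped CN-10, with a log2 difference of -0.15. The shRNA3T arrays read 10.47, 10.54, 10.51 and 10.29, all below CN-10, and the difference of -0.84 stayed under 2-fold. Across 26 other settings the 4-18 difference ran from -4.70 to -3.33.

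Hp, which encodes the haemoglobin scavenger haptoglobin (probe at chr19:39443156-39443215, minus strand), was higher in 4-18 and shRNA3T. It read 8.11, 7.91, 8.13 and 8.43 in CN-10 and 10.84, 9.23, 10.11 and 9.14 in 4-18. The shRNA3T arrays read 8.64, 9.29, 9.50 and 9.55, and the 3-44 arrays read 8.22, 7.86, 8.41 and 8.52. All 4-18 and all shRNA3T arrays lay above CN-10, whereas the 3-44 arrays overlapped it. The log2 differences were 1.68 in 4-18, 1.10 in shRNA3T and 0.11 in 3-44 (SE 0.32), and those in 4-18 and shRNA3T passed the call limits. The shRNA3T call was lost when CN-10 replicate 1, 2 or 3 was left out, with differences of 1.09, 1.02 and 1.09, and without shRNA3T replicate 2, 3 or 4, with 1.08, 1.01 and 1.00. With 75th percentile scaling (1.17) and on the processed signal (0.84) it was lost too. The 3-44 difference had no stable sign, being -0.43 on the processed signal.

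Hpx, the haem-binding protein haemopexin (probe at chr1:163319663-163319722, minus strand), was bright on every array. It read 14.05, 13.81, 13.95 and 13.86 in CN-10, 14.27, 14.32, 14.25 and 14.00 in 4-18, 14.70, 14.50, 14.51 and 14.33 in 3-44, and 14.36, 14.53, 14.67 and 14.78 in shRNA3T. The 3-44 and shRNA3T arrays all lay above CN-10, by log2 differences of 0.59 and 0.67 (SE 0.11), while 4-18 overlapped it at 0.29. On the series' own unscaled values the 4-18 difference was -0.43.

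Cp encodes ceruloplasmin, a copper-carrying ferroxidase made in a secreted and a membrane-anchored form, and its probes did not move together. The brightest, A_64_P092201 at chr2:105148774-105148833, is annotated to an mRNA of the membrane-anchored form. It read 8.72, 8.59, 8.72 and 8.55 in CN-10, 8.07, 8.52, 7.85 and 7.87 in 4-18, 8.45, 8.30, 8.46 and 8.27 in 3-44, and 8.43, 8.32, 8.38 and 8.36 in shRNA3T. Every silenced array was below every CN-10 array, with log2 differences of -0.57, -0.28 and -0.27 (SE 0.12). The probe A_64_P036925 at chr2:105135264-105135323, annotated to another Cp transcript, read 7.73, 8.03, 8.04 and 7.94 in CN-10 and lay above that on all arrays of 3-44 (8.34 to 8.55) and shRNA3T (8.16 to 8.45). Its log2 differences there were 0.52 and 0.32 (SE 0.17), opposite in sign to the brightest probe. In 4-18 it read 7.54, 8.39, 7.30 and 7.59, a log2 difference of -0.23, and overlapped CN-10 through replicate 2 alone. Without that array the difference was -0.46, and with 75th percentile scaling it turned to 0.33. The third Cp probe, A_43_P11448 at chr2:105129670-105129729, was well above background on no array.

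Orm1 and Crp, both positive acute phase genes, gave next to no signal. Orm1, which encodes alpha-1-acid glycoprotein (chr5:80326525-80326584), was well above background on no array, with readings from 6.17 to 6.82. Crp, which encodes C-reactive protein (chr13:88702243-88702302), was well above background on 1 array, 3-44 replicate 2 at 6.76, and the other 15 read 6.08 to 6.40. No fold is given for either, although at these dim readings both passed the call limits in 4-18 with 75th percentile scaling (measured log2 differences 1.34 and 1.36), and Orm1 also on the processed signal (1.44).

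The regulators overlapped CN-10 in every comparison. Stat3, the transcription factor downstream of interleukin-6 (probe at chr10:89821145-89821204, minus strand), read 8.91, 9.91, 9.83 and 9.82 in CN-10, 9.89, 11.04, 9.73 and 9.15 in 4-18, 8.09, 9.90, 9.61 and 9.37 in 3-44, and 9.87, 10.04, 10.26 and 10.33 in shRNA3T. Socs3, its feedback inhibitor (chr10:107958636-107958695, minus strand), read 7.45, 8.24, 7.42 and 8.36 in CN-10 and between 7.54 and 8.24 on all silenced arrays. Among the silenced groups, its 4-18 arrays (7.97 to 8.24) lay above its 3-44 arrays (7.69 to 7.94). The log2 differences of Stat3 were 0.33, -0.37 and 0.51 (SE 0.40). The first was -0.03 without 4-18 replicate 2 and -0.23 on the series values, and the second was 0.01 without 3-44 replicate 1, so neither had a settled sign. Those of Socs3 were 0.24, -0.00 and 0.03 (SE 0.19), and each took both signs across the other settings. These are transcript levels and do not report Stat3 activity.

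**Figure D2:**
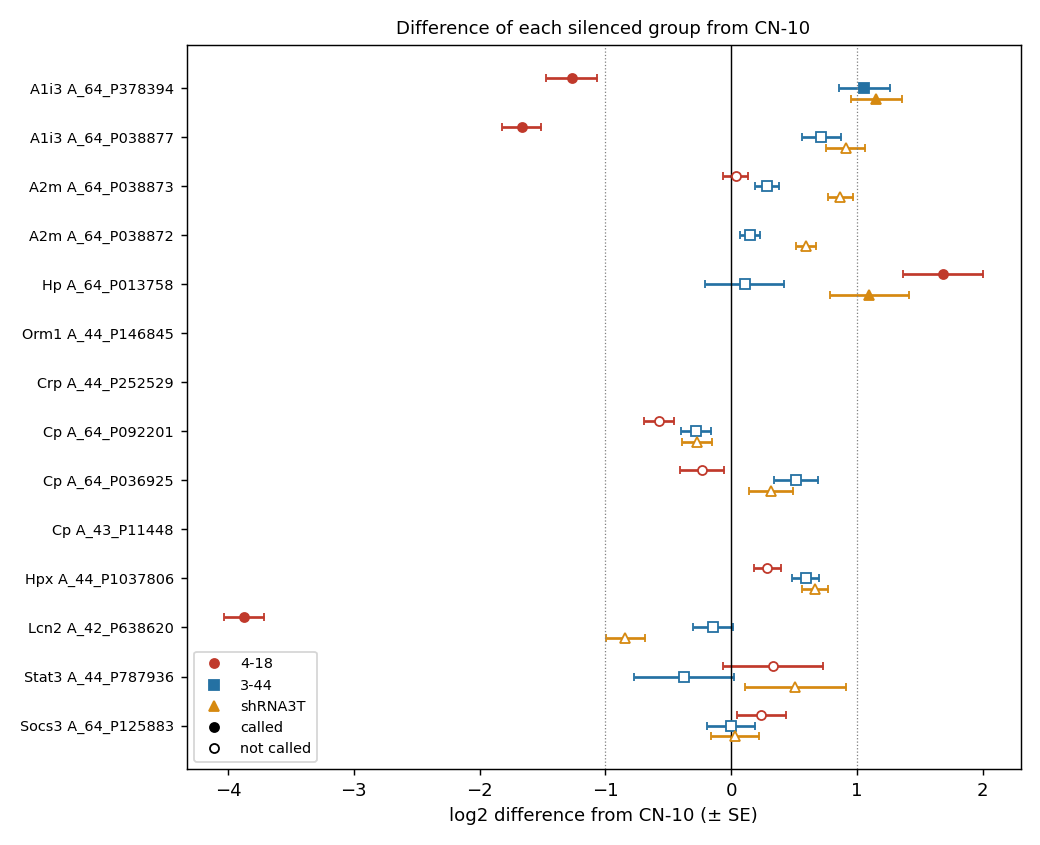
Log2 difference from CN-10 (x axis, bars are ± 1 SE, dotted lines mark 2-fold) of each member probe in 4-18, 3-44 and shRNA3T, with filled symbols for probes past the call limits. Lcn2 at -3.87 and the brighter A1i3 probe at -1.27 lie to the left in 4-18 and Hp at 1.68 to the right, the other A1i3 probe is drawn at its measured value although no 4-18 array was well above background, and differences with fewer than 2 arrays well above background over both groups (Orm1, Crp, the third Cp probe and A2m A_64_P038872 in 4-18) are not drawn.

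Counted with 1 probe per gene, 1 member was called higher and 2 lower in 4-18, beside 2.62% and 3.54% of all genes. In 3-44, 1 was called higher and 0 lower, beside 0.685% and 0.788% of all genes. In shRNA3T, 2 were higher and 0 lower, beside 1.2% and 1.19%. All arrays lay above CN-10 for 1 member and below it for 3 in 4-18, where 12% and 11.5% of all genes did so. These counts were 3 above and 1 below in 3-44 (7.24% and 9.03% of all genes) and 4 above and 2 below in shRNA3T (11% and 11.2%). Because the members were selected on these contrasts, nothing is read from these shares. The median log2 difference of the members was 0.11, 0.04 and 0.27, and that of all genes was 0.00, -0.01 and -0.01.

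Mug1 and Mug2, relatives of A1i3 that were not members, lay below CN-10 in 4-18 and above it in 3-44 and shRNA3T, as A1i3 did, except that Mug2 in 4-18 turned sign in 1 other setting. They and the other list genes are given with limma's adjusted p against CN-10, but the lists too were chosen with earlier results known, so these p-values measure the difference against the spread between arrays and are not independent evidence. Mug1, another murinoglobulin, read 9.20, 9.18, 9.50 and 9.46 in CN-10, 7.70, 8.03, 7.63 and 8.48 in 4-18, 11.44, 11.37, 11.01 and 11.54 in 3-44, and 10.37, 10.70, 10.63 and 11.04 in shRNA3T. It fell in 4-18 (log2 difference -1.37, adjusted p = 6e-05) and rose in 3-44 (2.01, adjusted p = 8.3e-06) and shRNA3T (1.35, adjusted p = 0.00016), with SE 0.18. Clone 4-18 was lower than clone 3-44 by a log2 difference of -3.38. Because of the shared sequence, Mug1 and A1i3 are not separate evidence of this pattern.

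Mug2 rose in 3-44 (1.06, SE 0.11, adjusted p = 2.1e-05). It was at -0.84 in 4-18, where 1 of 4 arrays was well above background, and at 0.72 in shRNA3T, short of the fold limit with adjusted p of 3.6e-05 and 0.00033. The 4-18 value of Mug2 turned to 0.13 in 1 of 26 other settings. Pzp, a macroglobulin 7.3 Mb further along chromosome 4 on the minus strand, read 8.85, 8.49, 9.28 and 9.22 in CN-10, 12.77, 12.95, 12.90 and 12.66 in 3-44, and 12.05, 11.64, 12.43 and 12.66 in shRNA3T. It rose 14.5-fold in 3-44 (log2 3.86, SE 0.20, adjusted p = 1.3e-08) and 9.42-fold in shRNA3T (log2 3.24, adjusted p = 8.1e-08). In 4-18 it read 9.79, 9.66, 9.89 and 9.69, above CN-10 at a log2 difference of 0.80 (adjusted p = 0.0079), which is under 2-fold. Pzp therefore differed in sign from A1i3 and Mug1 in 4-18, and all 3 were higher in the shRNA3 groups. Lrp1, the receptor that clears macroglobulin complexes, was not called, at -0.22, 0.25 and 0.42 (SE 0.20). Single arrays moved Lrp1: in 4-18 it was -0.43 without 4-18 replicate 1 and -0.04 without 4-18 replicate 4. In 3-44 it was 0.15 without 3-44 replicate 1.

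**Figure D3:**
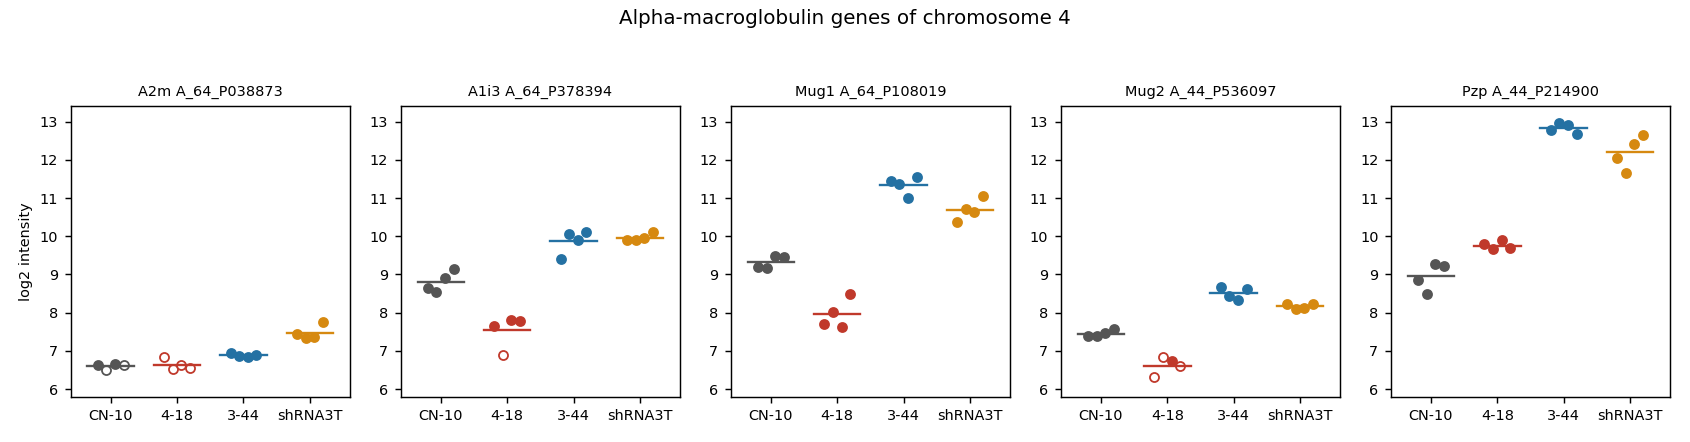
Normalized log2 intensity (y axis, same range in each panel) of A2m, A1i3, Mug1, Mug2 and Pzp on the 4 arrays of each group (x axis), with lines at group means and open circles for spots not well above background. Levels of different probes are not comparable, and within each panel the order of groups is the point: 4-18 is lowest for A1i3, Mug1 and Mug2 and above CN-10 for Pzp.

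C5, a complement component of the same protein superfamily, was called in all 3 comparisons with yet another pattern. It rose in 4-18 (2.14, adjusted p = 5.9e-09) and shRNA3T (1.03, adjusted p = 2.8e-05) and fell in 3-44 (-1.42, adjusted p = 2e-06), with SE 0.12. Its CN-10 arrays read 10.10, 10.26, 10.20 and 10.22, its 3-44 arrays 8.56, 9.01, 8.79 and 8.71, and no silenced group overlapped CN-10. The shRNA3T call was lost without shRNA3T replicate 4, at 0.94. The list of 6 held these relatives Mug1, Mug2, Pzp and C5 with the receptor Lrp1 and its chaperone Lrpap1. In it 1 rose and 1 fell in 4-18, 3 rose and 1 fell in 3-44, and 3 rose and 0 fell in shRNA3T, all of them among the first 4. The shares of all genes called higher and lower were 2.62% and 3.54% in 4-18, 0.685% and 0.788% in 3-44, and 1.2% and 1.19% in shRNA3T.

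Among the other positive acute phase genes, Itih4 and Fga fell in 4-18 and rose in both shRNA3 groups. Of 20 on the array, 8 fell and 1 rose in 4-18, 5 rose and 0 fell in 3-44, and 6 rose and 1 fell in shRNA3T, with median log2 differences of -0.62, 0.20 and 0.55. The list holds Saa4, a serum amyloid that the array's annotation calls constitutive. Saa4 was among the 8 that fell in 4-18 and the 5 that rose in 3-44. Among all genes 2.62% were called higher and 3.54% lower in 4-18, 0.685% and 0.788% in 3-44, and 1.2% and 1.19% in shRNA3T. The direction of calls in 4-18 depended on the scaling: over all 74 list genes 5 rose and 14 fell, but 16 rose and 11 fell with 75th percentile scaling and 4 rose and 23 fell on the series values. Itih4, an inter-alpha-trypsin inhibitor heavy chain, read 9.73, 8.94, 9.71 and 9.02 in CN-10, 7.94, 7.59, 7.54 and 7.51 in 4-18, 11.53, 13.66, 12.24 and 10.76 in 3-44, and 14.47, 14.05, 14.92 and 15.08 in shRNA3T. It rose 38.9-fold in shRNA3T (log2 5.28, adjusted p = 2.4e-06) and 6.49-fold in 3-44 (log2 2.70, adjusted p = 0.0015), and fell in 4-18 (log2 -1.70, SE 0.45, adjusted p = 0.012). The 4-18 call was lost in 3 of 26 other settings.

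Fga encodes a fibrinogen chain. It fell in 4-18 (-1.25, adjusted p = 0.0068) and rose in 3-44 (1.66, adjusted p = 0.0029) and shRNA3T (2.65, adjusted p = 3.4e-05), with SE 0.30. Serpina3n, a serine proteinase inhibitor, rose in 3-44 (2.53, adjusted p = 0.00064) and shRNA3T (4.68, adjusted p = 1.5e-06) and was at -0.34 in 4-18 (SE 0.38, adjusted p = 0.6). Single arrays moved the 4-18 value, to -0.62 without 4-18 replicate 2 and -0.03 without 4-18 replicate 3. Itih3, another inhibitor heavy chain, fell in 4-18 (-2.27, adjusted p = 1.1e-06) and rose in shRNA3T (1.12, adjusted p = 0.0016), with 0.11 in 3-44 and SE 0.20. Kng1, a kininogen, fell in 4-18 (-3.47, SE 0.34, adjusted p = 3.4e-06) and was at -0.93 in 3-44, below CN-10 on all arrays, and at -0.57 in shRNA3T, with adjusted p of 0.13 and 0.37. The shRNA3T value rests on replicate 1, and without it was -0.07.

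Hamp, which encodes the iron hormone hepcidin and is a target of Stat3, fell in both 4-18 and shRNA3T. It read 11.04, 10.89, 11.47 and 10.98 in CN-10, 8.81, 8.97, 8.68 and 8.81 in 4-18, 10.69, 10.67, 10.24 and 10.85 in 3-44, and 7.00, 7.03, 6.97 and 6.92 in shRNA3T. It fell 4.86-fold in 4-18 (log2 -2.28, adjusted p = 1.2e-08) and 17.4-fold in shRNA3T (log2 -4.12, adjusted p = 7.3e-11), and in 3-44 it stood at -0.48 (SE 0.13, adjusted p = 0.036). Lbp, named here after its values were seen, was the 1 positive acute phase gene that rose in 4-18 (1.01, SE 0.24, adjusted p = 0.0056), and its call was lost without CN-10 replicate 2 or 4 (0.995 and 0.985) or 4-18 replicate 1 or 2 (0.93 and 0.94).

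Cd14, a pattern recognition receptor that is also a macrophage marker, rose in 3-44 (2.04, SE 0.16, adjusted p = 1.7e-06) and is likewise named after its values were seen. It lay above CN-10 on all arrays of 4-18 (0.81, adjusted p = 0.0018) and shRNA3T (0.98, adjusted p = 0.00086) too, under 2-fold. The shRNA3T difference passed the call limits in 7 of 26 other settings, among them without CN-10 replicate 3 or 4 and without shRNA3T replicate 3 or 4. The summed level of 6 macrophage markers on a linear scale was 984 to 1217 in CN-10, 1249 to 1466 in 4-18, 2150 to 3037 in 3-44 and 1420 to 1664 in shRNA3T. Without Cd14 the sum was 598 to 675 in CN-10, 530.0 to 640 in 4-18, 551 to 621 in 3-44 and 589 to 615 in shRNA3T, so the rise in the sum was that of Cd14.

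Among the negative acute phase genes, the carriers Serpina6 and Ttr rose in all silenced groups. Of 10 on the array, 2 rose and 4 fell in 4-18, 3 rose and 0 fell in 3-44, and 2 rose and 0 fell in shRNA3T. The shares of all genes are those given with the positive genes, at most 2.62% called higher and 3.54% lower. One of the 4, Ahsg, has probes that disagree in 4-18: its brighter probe was at -1.29, while A_64_P006340 was called higher at 1.03 (adjusted p = 0.00021), so its direction is uncertain. Serpina6, the corticosteroid-binding globulin, read 7.08, 6.96, 7.05 and 6.47 in CN-10, where 3 of 4 arrays were well above background. It rose in all 3 comparisons, by log2 5.15 (35.6-fold, adjusted p = 1.5e-10) in 4-18, 2.74 (adjusted p = 5.9e-07) in 3-44 and 2.87 (adjusted p = 2.6e-07) in shRNA3T, with SE 0.20. With CN-10 this dim, the exact folds are uncertain. Ttr, the thyroid hormone carrier transthyretin, rose by 2.93, 2.84 and 2.39 (SE 0.34, adjusted p = 2.2e-05, 0.00013 and 0.00032), where the CN-10 mean rests on 3 arrays because 1 spot was an outlier.

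**Figure D4:**
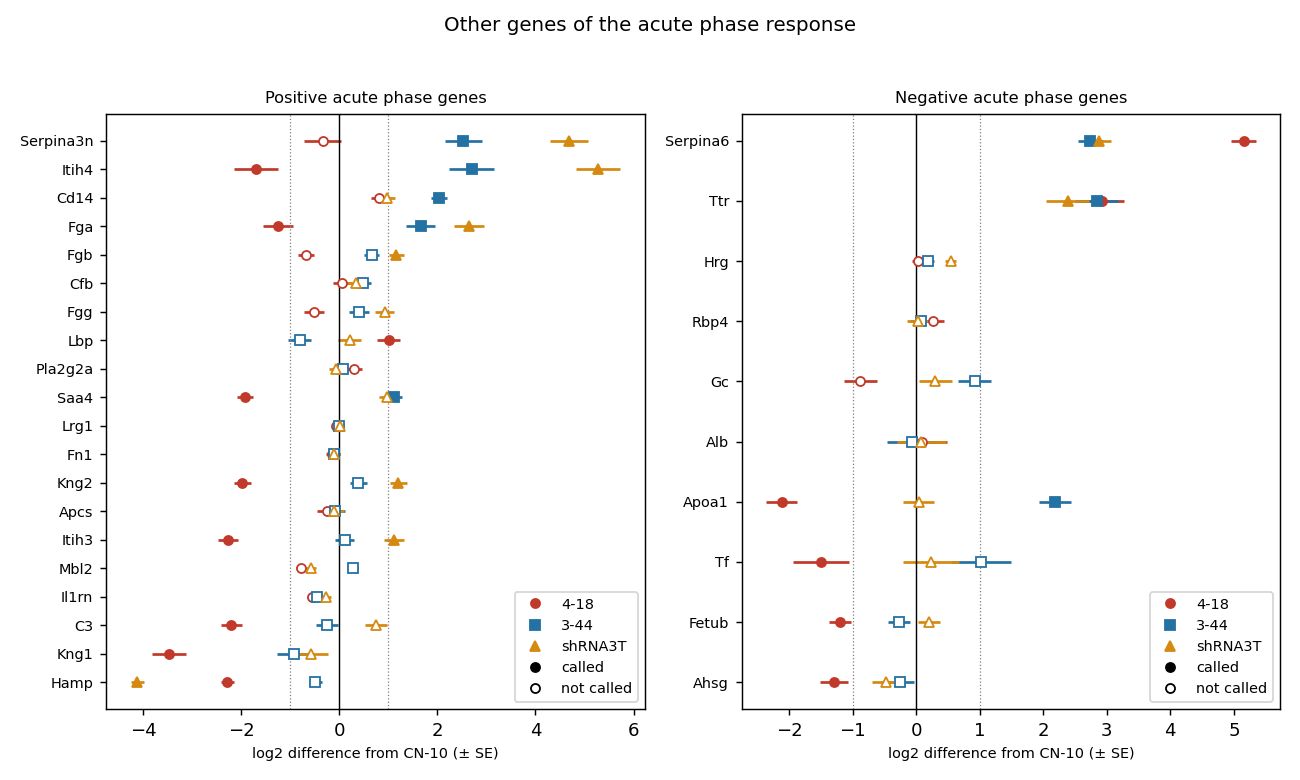
Log2 difference from CN-10 (x axis, bars are ± 1 SE, dotted lines mark 2-fold) of 20 positive and 10 negative acute phase genes in 4-18, 3-44 and shRNA3T, with filled symbols for called genes. Itih4 and Fga spread widely, with shRNA3T to the right and 4-18 to the left. Serpina3n lies to the right in both shRNA3 groups and within 1 SE of 0 in 4-18, and Serpina6 and Ttr lie to the right in all 3 comparisons.

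Of 23 receptor and signalling genes on the array, 0 rose and 1 fell in 4-18, and none was called in 3-44 or shRNA3T. At the shares called among all genes, given above, such counts are near the background. Limma gave 7, 1 and 2 of them an adjusted p under 0.05 in 4-18, 3-44 and shRNA3T, and 9, 4 and 4 an unadjusted one. Of all genes, 24.1%, 8.14% and 12.2% had an adjusted p under 0.05 and 34.6%, 19.6% and 23.3% an unadjusted one, so these counts too are near the background. The 1 that fell was Nfkb1, an NF-kB subunit, named after its values were seen (-1.07, SE 0.25, adjusted p = 0.0057), and its call was lost without CN-10 replicate 2 or 4 (-0.98 and -0.96) or 4-18 replicate 1 or 4 (-0.93 and -0.90). Il6r was at 0.14, 0.07 and 0.37 (SE 0.08), with adjusted p = 0.0061 in shRNA3T but under 2-fold. Il6st was at 0.12, 0.45 and 0.91 (SE 0.36), and Jak1 at -0.51, 0.37 and 0.46 (SE 0.25). Single arrays moved both: without CN-10 replicate 4, Il6st was at 0.39, 0.72 and 1.185, the last past the call limits (adjusted p = 0.048), and Jak1 at -0.29 in 4-18, while without 4-18 replicate 1 or 2 Il6st in 4-18 was 0.46 or -0.035. Cebpb, a transcription factor of hepatic acute phase genes, was at -0.72 in 4-18 (SE 0.19, adjusted p = 0.013) and at -0.04 and 0.23 elsewhere. Cebpd was near its detection limit, at -0.01, 0.01 and 0.03 (SE 0.11). None of the 7 other Stat3 target genes was called in any comparison, while limma gave 3, 2 and 2 of them an adjusted p under 0.05 and 3, 4 and 3 an unadjusted one. With 7 genes, the shares called among all genes also give less than 1, and the shares of all genes under each p limit are those just given, so nothing is read from these counts.

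Of the 8 haem and iron genes, 1 was called, in 4-18, beside 2.62% of all genes called higher and 3.54% lower there. Limma gave 6 of the 8 an adjusted p under 0.05 in 4-18 and 6 an unadjusted one, beside 24.1% and 34.6% of all genes. All but Hmox1 stayed under 2-fold, with both directions among them. That count is above the share of all genes, but the list was chosen with earlier results known. Hmox1, which degrades haem, read 9.96, 10.08, 10.06 and 10.06 in CN-10 and 12.22, 12.56, 12.00 and 12.13 in 4-18, a rise of log2 2.18 (SE 0.16, adjusted p = 1.4e-07). It was at 0.75 in 3-44 and 0.82 in shRNA3T, under 2-fold, with adjusted p of 0.0082 and 0.0027. The difference between 4-18 and 3-44 was 1.44.

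The genes most like A1i3 over the 16 arrays, by the root mean square difference of centred log2 levels, were Gstm3 (0.33), Mug2 (0.45), an uncharacterized transcript (0.45), C9 (0.45) and Slc7a2 (0.45). Gstm3, a glutathione transferase, stood at -1.01, 1.54 and 1.5 in the 3 comparisons, and C9, a terminal complement component, at -0.64, 0.88 and 1.5. Those most like A2m were Cyb5a (0.14), Bcl3 (0.15), Cyp2e1 (0.16), a probe without a gene name and Irf3 (0.18). Bcl3, a co-regulator of NF-kB, stood at 0.12, 0.45 and 0.80. Likeness here is a ranking of levels and carries no test.

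Promoter sequence, from 250 bases before to 50 after the start in RefSeq on GRCr8, was at hand for 7 of the 10 members and not for A1i3, A2m or Hp. The Stat motif TTCNNNGAA, searched on both strands, was in 0 of the 7 and in 8.87% of 33469 promoters. The acute phase motif CTGGGAA was in Lcn2 alone (11.3% of all), and the C/EBP motif TTNNGNAA in 5 of 7 (41.3% of all). The NF-kB consensus, which was added after the data were seen, was in Lcn2 and Socs3 (7.51% of all). The Lcn2 stretch is shown because Lcn2 had the widest difference. It covers 30 bases at chr3:36082001-36082030 on the minus strand, from 250 to 221 bases before the start, with CTGGGAA in capitals, and the NF-kB match overlaps it.
Lcn2 promoter: gggctCTGGGAAtgtcccttcagctccccc
A match describes letters in this window and not a bound site.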

How the data were processed

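RNA from 4 groups of 4 biological replicates of H35 cells was hybridised to 1-colour 4x44K rat arrays. The authors deposited scanner files with raw mean and background intensity per spot (Feature Extraction 10.7.3.1) and a series table of other values. Set against the deposited intensity columns, the table holds log2 of normexp-corrected median signals without normalization between arrays (largest difference 4e-11). The submitters' notes name limma.

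Here, with R 4.3.3 and limma 3.58.1, mean signals were background-corrected (normexp, offset 50), 1377 control spots were dropped, arrays were quantile normalized, outlier spots were set missing and spots of a probe averaged. One mean per group was fitted over 16 arrays with eBayes, and p-values were adjusted by Benjamini-Hochberg over 30367 probes. A call needed 2-fold and an adjusted p under 0.05. A gene was represented by its probe with the highest mean over 16 arrays. The fit was tested on simulated data. The number of arrays limits the precision.

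The members and lists were chosen with earlier results of these data known. Of 81 planned list genes, 74 were on the array. Named list genes were those called in all 3 comparisons, the 3 highest and 3 lowest calls per comparison, 10 fixed names (LOC297568 is not among the array's gene names) and the 5 nearest patterns of A1i3 and A2m. Differences between silenced groups, given without a test, and the NF-kB motif were added after the data were seen. Alternatives were other scalings, offsets and weights, the series values, probe filters, 2 groups alone, a replicate block, each array left out, a 1.5-fold limit and any probe of a gene. Exon and UTR annotation was not used here.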

Additional observations from a re-analysis of the deposited data

Results flagged for a closer look

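In 4 of 56 groups of member readings, 1 array lay far from the other 3 by Dixon's criterion, which chance alone meets in about 1 group of 20. The A1i3 probe A_64_P038877 read 8.76 on 3-44 replicate 3 (the others 9.12 to 9.16), and the Cp probe A_64_P036925 read 8.45 on shRNA3T replicate 1 (8.16 to 8.21). Stat3 read 8.91 on CN-10 replicate 1 (9.82 to 9.91), and Socs3 read 7.69 on 3-44 replicate 1 (7.91 to 7.94). Among 76 groups of the named list genes 5 stood out: Ttr at 15.56 and Serpina6 at 9.85 on 3-44 replicate 1, C5 at 11.50 on shRNA3T replicate 4, Kng1 at 10.04 on shRNA3T replicate 1 and Jak1 at 10.73 on shRNA3T replicate 3.

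A1i3 went one way on every 4-18 array and the other way on every 3-44 and shRNA3T array, at -1.27, 1.06 and 1.15 for the brighter probe and -1.66, 0.72 and 0.91 for the other, where -1.66 is a measured value without a 4-18 array well above background. The A2m probe A_64_P038872 read -0.18, 0.15 and 0.60, but no 4-18 or CN-10 array was well above background and the 4-18 value was 0.33 on the series values and 1.05 with 75th percentile scaling, so it has no settled direction there. These differences between the groups were not tested, since the members were selected on them. Of the 74 list genes, 8 were called in opposite directions in different groups, 5 of them among the named genes and the others Apoa1, Saa4 and Kng2. Between 4-18 and shRNA3T the log2 difference was -3.90 for Fga, -6.98 for Itih4 and -3.38 for Itih3, and between 4-18 and 3-44 it was -3.38 for Mug1 and 3.56 for C5. These genes were picked for that pattern, so no test of it is given.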

How the results depend on the processing

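No member changed sign in a comparison where it was called, in any setting. Members called were 3 in 4-18, 1 in 3-44 and 2 in shRNA3T. With 75th percentile scaling they were 5 (4 higher and 1 lower, against 1 and 2), 0 and 0, on the series values 0 in 3-44 and 0 in shRNA3T, and at a 1.5-fold limit 2 in 3-44 and 5 in shRNA3T. Leaving out single arrays, they ran from 0 to 1 in 3-44 and from 1 to 2 in shRNA3T, and stayed at 3 in 4-18. A1i3 lost its 4-18 call with 75th percentile scaling (-0.71) and cyclic loess (-0.94). List genes called were 19, 12 and 12, and at 1.5-fold 34 in 4-18 and 19 in shRNA3T; with 75th percentile scaling the 4-18 split went from 5 higher and 14 lower to 16 and 11, and on the series values to 4 and 23. All genes called in 4-18 were 1616, and 11816 with 75th percentile scaling (11148 higher, where the median of all genes was 0.84), 3632 on the processed signal, 3030 on the series values (218 higher and 2812 lower, against 687 and 929) and 4107 at 1.5-fold. In 3-44 they were 387, and 767, 190 and 1281 in the last 3 of these. In shRNA3T they were 628, and 1243, 374 and 1978. The cause was not tested. The replicate numbers were not taken as pairs: of 24 correlations of same-numbered deviations (-0.12 to 0.48), 14 exceeded 0.1, among them all those of replicate 1 (0.19 to 0.48), and 9 of 16 arrays correlated best with their own number. With the replicate block the list genes called stayed at 19, 12 and 12 and all genes were 1631, 415 and 637. Probes near background (A2m, Orm1, Crp and the third Cp probe) limit what can be said of those genes.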
